A study of Saccharomyces cerevisiae with 12 samples.

Results

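In budding yeast (Saccharomyces cerevisiae), 10 genes of purine nucleotide synthesis are described, of 5636 genes measured. They are IMD2, IMD3, IMD4, GUA1, ADE1, ADE2, ADE4, ADE12, ADE13 and ADE17, taken by gene symbol from the probe annotation. IMD2 was chosen by its strongly positive raffinose ratio, so its raffinose values are given with no test. The other 9 belong to the same enzyme family or pathway and are not all of its genes. Each 2-colour oligonucleotide array compared yeast carrying a null allele of GCR1, labelled gcr1 null mutant, with a second strain that the labels do not name. Cells were grown in 3% raffinose, 3% galactose or 2% glucose, with 4 arrays per sugar and 12 in all. Strain background, auxotrophies and the extent of the deletion are not given in the labels. Some arrays are dye-swapped repeats of one culture, and the labels do not tell them from separate cultures. The 4 arrays therefore stand for fewer independent cultures, and the p-values can be smaller than they should be.

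Purine nucleotides are built stepwise on a sugar phosphate by the ADE enzymes, which end at inosine monophosphate (IMP). From IMP the pathway forks. IMP dehydrogenase, encoded by the IMD genes, and GMP synthetase, encoded by GUA1, lead to GMP and GTP, whereas adenylosuccinate synthetase (ADE12) and adenylosuccinate lyase (ADE13) lead to AMP and ATP. In yeast IMD2 is known for its induction when guanine nucleotides run low, through a change in where RNA polymerase II starts on its promoter, and the other IMD genes are not known to share this control.

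Each value is a log2 ratio of the labelled mutant over the second strain. The direction is likely rather than settled, because the labels do not say which dye held the mutant. It rests on genes that Gcr1, an activator of glycolytic genes, is known to drive. GPM1 averaged -5.39, -4.86 and -4.96 and TPI1 averaged -2.24, -2.91 and -2.70 in raffinose, galactose and glucose. GCR1 itself goes against this direction, with mean ratios of 1.67, 1.58 and 0.40 in raffinose, galactose and glucose, and the place of its probes relative to the deletion is not known here. If the ratios run the other way, every higher becomes lower. Replicates 1 and 2 stood apart from replicates 3 and 4. Over all probes the 2 pairs correlated at r = -0.51 to -0.34 in raffinose, and over probes with a gene name at r = 0.24 to 0.47. In galactose the pairs correlated at r = -0.14 to -0.05 over all probes and 0.66 to 0.73 over named probes. The labels do not give the relative sign of the raffinose arrays. Between the pairs r was negative over all probes but positive over named probes. Values with raffinose replicates 3 and 4 turned are therefore also given, as a check of the processing. As deposited, URA3 at 2.51 to 2.78 and IMD2 at 3.43 to 4.17 kept 1 sign on all 4 raffinose arrays, whereas HIS3 and TRP1 changed sign between the pairs. Of 120 spots over 5 in size on at least 6 arrays, of which 6 have a gene name, 114 changed sign between the pairs in their mean over all sugars. All 10 genes had a higher mean on replicates 1 and 2 than on replicates 3 and 4 in every sugar, by 0.42 to 0.96 in raffinose, 0.43 to 0.88 in galactose and 0.01 to 0.74 in glucose. The median over all genes for the same difference was also above 0, at 0.53, 0.48 and 0.15, so this sign is not particular to the 10 genes. The share of all genes with this sign is not given here. Between percentiles 5 and 95 it ran from -1.50 to 1.03 in raffinose, -1.26 to 0.91 in galactose and -0.99 to 0.87 in glucose. The table gives ratios without spot intensities, and precision is bounded by how few arrays there are.

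**Figure D1:**
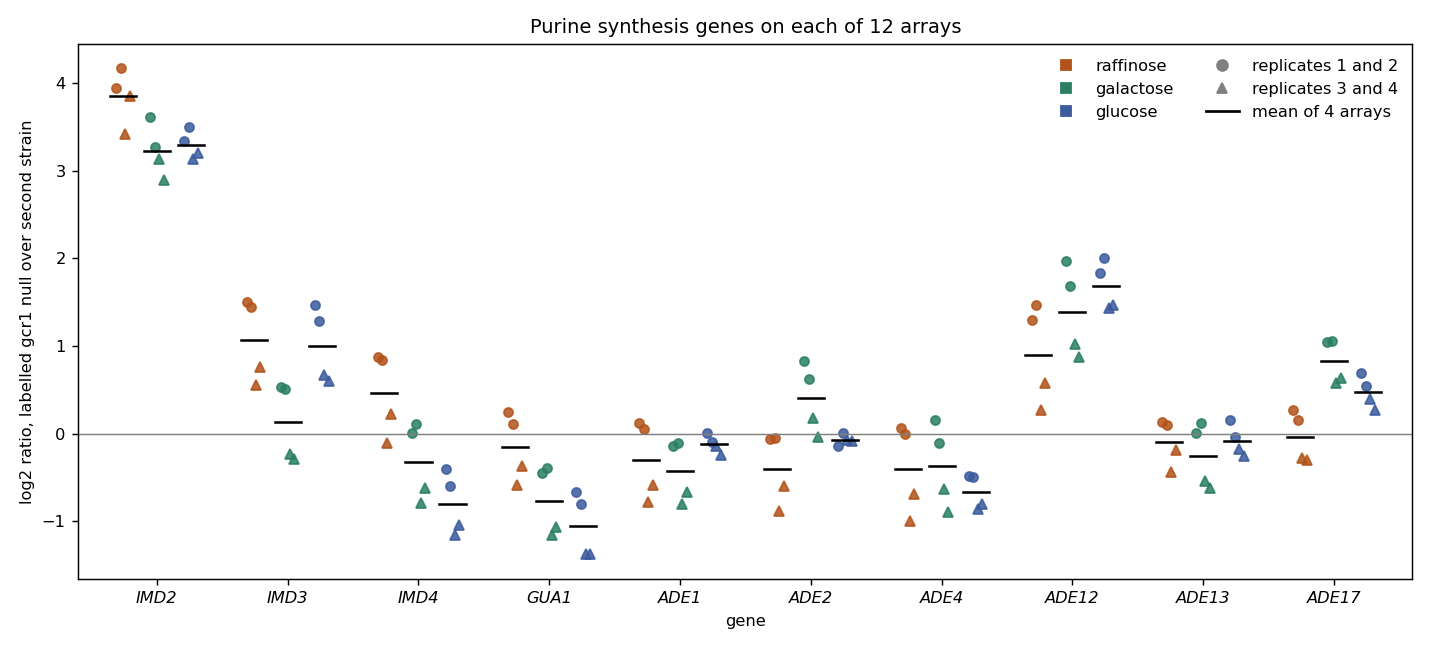
Log2 ratio (vertical axis) of the labelled gcr1 null mutant over the second strain for each of the 10 genes (horizontal axis) on each of 12 arrays, coloured by sugar, with circles for replicates 1 and 2, triangles for replicates 3 and 4 and a bar at the mean of 4 arrays. All 12 values of IMD2 lie between 2.89 and 4.17, and all 12 of ADE12 lie above 0.

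IMD2 (YHR216W), the inducible IMP dehydrogenase gene, was far higher in the labelled mutant in every sugar. In raffinose, the sugar it was selected on, the 4 ratios of IMD2 were 3.95, 4.17, 3.43 and 3.85, with a mean of 3.85 ± 0.31 (SD, n = 4), a 14.4-fold ratio. In galactose they were 3.62, 3.28, 3.14 and 2.89, with a mean of 3.23 ± 0.30. In glucose they were 3.34, 3.50, 3.13 and 3.20, with a mean of 3.29 ± 0.16. No array of any sugar came near 0, and the ranges of the sugars overlapped. In the sugars that did not choose it, IMD2 rose 9.40-fold in galactose (limma, adjusted p = 9.83e-09) and 9.80-fold in glucose (limma, adjusted p = 3.05e-09). Ordered by mean among 5636 genes it stood at place 4 in raffinose, 8 in galactose and 44 in glucose. Galactose and glucose did not differ beyond their spread for IMD2, with a difference of -0.06 and a 95% interval of -0.49 to 0.36 (limma, adjusted p = 0.826). The raffinose mean exceeded that of glucose by 0.56 and that of galactose by 0.62, which are not tested here. With the signs of raffinose replicates 3 and 4 turned, the raffinose mean of IMD2 would be 0.21, since turning cancels what both pairs share.

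IMD3 (YLR432W), a second IMP dehydrogenase gene, was higher in raffinose and in glucose. Its ratios were 1.50, 1.45, 0.55 and 0.77 in raffinose, 0.54, 0.51, -0.24 and -0.30 in galactose and 1.47, 1.28, 0.66 and 0.60 in glucose. Every array of raffinose and of glucose lay above every array of galactose. IMD3 rose in raffinose (1.07 ± 0.48, limma, adjusted p = 0.00182) and in glucose (1.004 ± 0.435, limma, adjusted p = 0.00123), and averaged 0.13 ± 0.46 in galactose (limma, adjusted p = 0.62). In galactose the sign of IMD3 turned between the pairs of arrays. Replicates 1 and 2 alone gave 0.52 and replicates 3 and 4 alone -0.27, both called (limma, adjusted p = 0.000375 and 0.0222). Each of these fits has 2 arrays per sugar, was added after seeing the data and may rest on a shared culture. The p-values thus measure spread within a pair and do not settle the direction.

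IMD4 (YML056C), another IMP dehydrogenase gene, fell in glucose and followed another order over the sugars. Its ratios were 0.88, 0.84, -0.10 and 0.22 in raffinose, 0.01, 0.11, -0.79 and -0.62 in galactose and -0.41, -0.60, -1.16 and -1.05 in glucose. All 4 glucose arrays lay below 0 and below all 4 raffinose arrays. The glucose mean was -0.81 ± 0.36 (limma, adjusted p = 0.00386). The means of 0.46 ± 0.48 in raffinose and -0.32 ± 0.45 in galactose did not pass the test (limma, adjusted p = 0.0912 and 0.183). They passed with the replicate number as a block (limma, adjusted p = 0.000228 and 0.00175). With replicates 1 and 2, and 3 and 4, averaged they did not (limma, adjusted p = 0.453 and 0.472). The block takes out the shift between the pairs of arrays, which is part of the uncertainty of a mean against 0.

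The IMD genes are close paralogs, and IMD2 and IMD4 have 1 probe each and IMD3 has 2. Whether the probes separate them was not tested, and the probe sequences were not used here. Their ratios differed on every array. IMD2 exceeded IMD3 by 1.87 to 3.38 and IMD4 by 3.07 to 4.29 over the 12 arrays. IMD3 minus IMD4 averaged 0.61 ± 0.04 on the raffinose arrays, 0.45 ± 0.11 on those of galactose and 1.81 ± 0.11 on those of glucose (SD, n = 4), so this difference within arrays varied less than either ratio. In glucose the 2 genes stood on opposite sides of 0 on all 4 arrays.

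GUA1 (YMR217W), which encodes the enzyme that turns XMP into GMP after IMP dehydrogenase, fell in galactose and in glucose. Its ratios were 0.24, 0.11, -0.59 and -0.37 in raffinose, -0.45, -0.40, -1.16 and -1.06 in galactose and -0.67, -0.80, -1.38 and -1.38 in glucose. All 8 arrays of galactose and glucose lay below 0, whereas raffinose spanned it. The means were -0.15 ± 0.39 in raffinose (limma, adjusted p = 0.551), -0.77 ± 0.40 in galactose (limma, adjusted p = 0.00287) and -1.06 ± 0.37 in glucose (limma, adjusted p = 0.000289).

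ADE12 (YNL220W), which encodes adenylosuccinate synthetase, the first step from IMP to AMP, was, besides IMD2, the only gene of the 10 above 0 on all 12 arrays. The share of all genes that lie above 0 on all 12 arrays is not given here. Its ratios were 1.30, 1.47, 0.27 and 0.57 in raffinose, 1.98, 1.69, 1.03 and 0.88 in galactose and 1.84, 2.01, 1.43 and 1.47 in glucose. The lowest arrays were replicates 3 and 4 of raffinose. ADE12 rose in raffinose (0.90 ± 0.57, limma, adjusted p = 0.00625), in galactose (1.39 ± 0.53, limma, adjusted p = 0.00013) and in glucose (1.69 ± 0.28, limma, adjusted p = 2.66e-05). ADE13 (YLR359W), whose adenylosuccinate lyase acts both before IMP and on the way to AMP, had means of -0.10 ± 0.27 in raffinose, -0.26 ± 0.38 in galactose and -0.08 ± 0.18 in glucose. None of the 3 passed the test (limma, adjusted p = 0.634, 0.139 and 0.652). With the replicate number as a block the galactose mean of ADE13 passed (limma, adjusted p = 0.0138), but not with the pairs of arrays averaged (limma, adjusted p = 0.483).

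**Figure D2:**
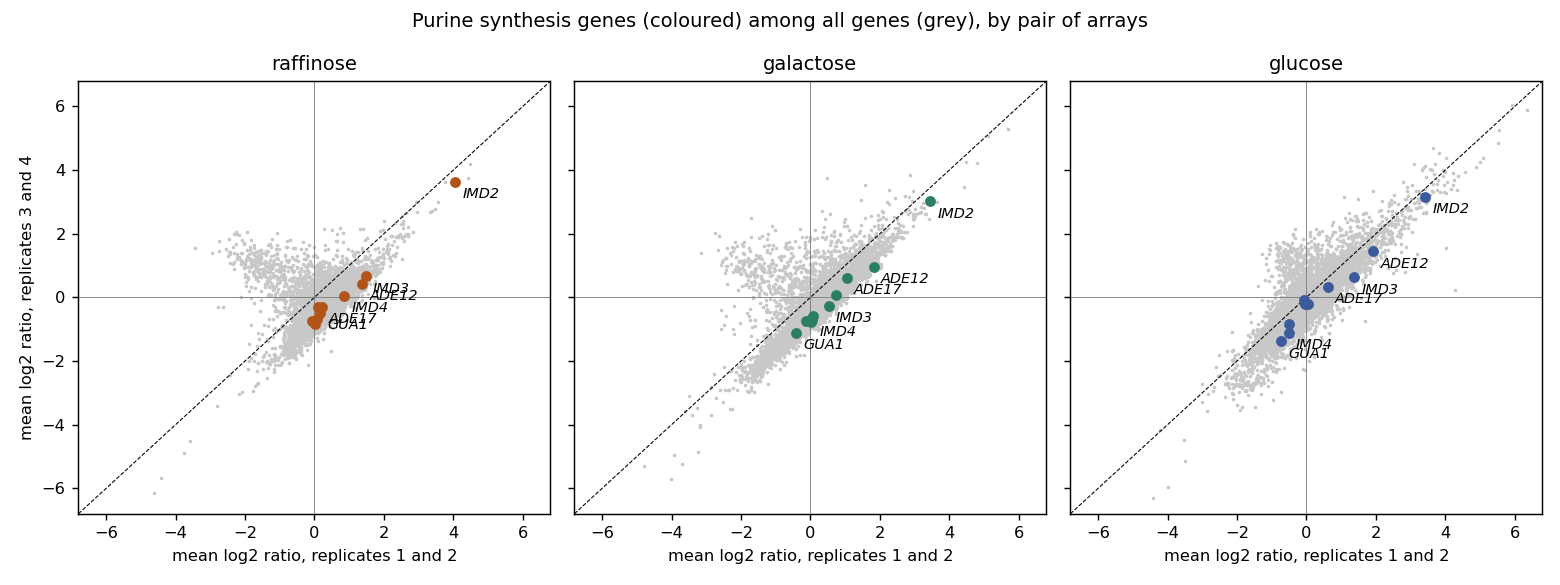
Mean log2 ratio on replicates 1 and 2 (horizontal axis) against that on replicates 3 and 4 (vertical axis) in each sugar, for all genes (grey) and the 10 purine synthesis genes (coloured, 6 of them named), with a dashed line at equal values. All 10 genes lie below the line in every sugar, the side to which the median difference over all genes also falls. IMD2 lies above 2.89 on both axes.

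Among enzymes before IMP, ADE17 (YMR120C) and ADE2 (YOR128C) were higher in galactose and ADE4 (YMR300C) was lower in glucose. ADE17, which encodes an enzyme of the last steps to IMP, had ratios of 0.27, 0.15, -0.28 and -0.30 in raffinose, 1.04, 1.06, 0.58 and 0.63 in galactose and 0.69, 0.55, 0.39 and 0.27 in glucose. Its galactose arrays all lay above its raffinose arrays. ADE17 rose in galactose (0.83 ± 0.26, limma, adjusted p = 0.000147) and in glucose (0.47 ± 0.18, limma, adjusted p = 0.00772), with a raffinose mean of -0.04 ± 0.29 (limma, adjusted p = 0.839).

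ADE2, which encodes AIR carboxylase, averaged 0.40 ± 0.40 in galactose, a called rise (limma, adjusted p = 0.0471) that was lost without galactose replicate 1, 2 or 3 (adjusted p = 0.232, 0.167 and 0.054). Its ratios there were 0.83, 0.63, 0.18 and -0.04. In raffinose all 4 lay below 0, at -0.07, -0.05, -0.89 and -0.60, and the mean of -0.40 ± 0.41 did not pass the test (limma, adjusted p = 0.0705). It passed with the replicate number as a block (limma, adjusted p = 0.00864) and with arrays centred on their median (-0.47, limma, adjusted p = 0.000843). With the pairs of arrays averaged it did not (limma, adjusted p = 0.452). In glucose ADE2 averaged -0.07 ± 0.06 (limma, adjusted p = 0.718).

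ADE4, which encodes the enzyme of the first committed step, fell in glucose, with ratios of -0.49, -0.49, -0.87 and -0.81 and a mean of -0.66 ± 0.20 (limma, adjusted p = 0.0114). This call was lost without glucose replicate 3 (limma, adjusted p = 0.0536). Its means of -0.41 ± 0.52 in raffinose and -0.37 ± 0.48 in galactose (limma, adjusted p = 0.124 each) passed with the replicate number as a block (limma, adjusted p = 0.00359 and 0.00472). With the pairs of arrays averaged they did not (limma, adjusted p = 0.497 and 0.403). On replicates 1 and 2 ADE4 lay between -0.10 and 0.16 in both sugars, and on replicates 3 and 4 it lay between -0.996 and -0.64.

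ADE1 (YAR015W), which encodes SAICAR synthetase, fell in galactose (-0.43 ± 0.36, limma, adjusted p = 0.038). The galactose ratios were -0.14, -0.10, -0.80 and -0.67, and leaving out galactose replicate 3 or 4 ended the call (limma, adjusted p = 0.187 and 0.143). ADE1 averaged -0.30 ± 0.45 in raffinose and -0.12 ± 0.10 in glucose (limma, adjusted p = 0.179 and 0.557). The raffinose mean passed with the replicate number as a block (limma, adjusted p = 0.0192), but not with the pairs of arrays averaged (limma, adjusted p = 0.602).

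Counted together, the 10 genes did not move one way. In raffinose, of the 9 genes other than IMD2, 2 were called higher and 0 lower by limma, with 3 and 1 at an unadjusted p under 0.05. Over all genes 22.4% were called higher and 14.3% lower there. In galactose 4 of 10 were called higher and 2 lower, against 34.8% and 25.2% of all genes. In glucose 4 of 10 were higher and 3 lower, against 26.8% and 31.8% of all genes. The median ratio of the 10 genes was -0.07, -0.07 and -0.08 in raffinose, galactose and glucose, against 0.05, 0.08 and -0.04 over all genes. With each array centred on its median, the calls split 3 higher and 3 lower in raffinose and 4 higher and 5 lower in galactose, and over all genes 1436 higher and 1424 lower in raffinose, against 1265 and 806 without centring.

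With raffinose replicates 3 and 4 turned, limma called 0 of the 9 genes in raffinose, with means of 0.21 to 0.48 and adjusted p from 0.183 to 0.396. It then called 0 of 5636 genes. Turning leaves the difference between the pairs of arrays, so these means describe that difference.

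Whether the strain ratio itself depended on the sugar was tested as a difference of sugar means. Between raffinose and glucose, 2 of 9 genes were called higher in raffinose and 1 lower, against 22.6% and 15% of all genes. IMD4 was higher in raffinose by 1.26 ± 0.28 (SE, limma, adjusted p = 0.004) and GUA1 by 0.91 ± 0.26 (limma, adjusted p = 0.0153), and neither gene's raffinose arrays overlapped its glucose arrays. The GUA1 call was lost without glucose replicate 3 (limma, adjusted p = 0.0506). ADE17 was lower in raffinose by -0.51 ± 0.19 (limma, adjusted p = 0.0458), a call lost without any 1 of 6 of the 8 arrays compared, with adjusted p from 0.0502 to 0.125. ADE12 differed by -0.78 ± 0.31 (limma, adjusted p = 0.0625), and passed with the replicate number as a block (limma, adjusted p = 0.000454) and without raffinose replicate 2 (adjusted p = 0.0345).

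Between galactose and glucose, limma called 0 of 10 genes higher in galactose and 1 lower, the same counts as at an unadjusted p under 0.05, against 27.8% and 19.3% of all genes. The gene was IMD3, at -0.88 ± 0.30 (SE, limma, adjusted p = 0.0279). Its galactose arrays all lay below its glucose arrays. Leaving out galactose replicate 3 or 4, or glucose replicate 1 or 2, ended the call of IMD3 (limma, adjusted p = 0.0745 to 0.0842). With the replicate number as a block, IMD4 (0.48), GUA1 (0.29), ADE2 (0.48) and ADE17 (0.35) were also called, as higher in galactose (limma, adjusted p = 0.00148, 0.019, 0.0183 and 0.0082).

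Between raffinose and galactose, 1 of 9 genes was called higher in raffinose and 2 lower, against 13.3% and 17.2% of all genes. IMD3 was higher by 0.94 ± 0.30 (SE, limma, adjusted p = 0.0307), and lost the call without any 1 of raffinose replicates 1 and 2 or galactose replicates 3 and 4 (adjusted p = 0.0802 to 0.0889). ADE17 was lower in raffinose by -0.87 ± 0.19 (limma, adjusted p = 0.00409) and ADE2 by -0.80 ± 0.23 (limma, adjusted p = 0.0188), without overlap of the arrays in either case. The ADE2 call was lost without galactose replicate 1 (limma, adjusted p = 0.0539). With the replicate number as a block, IMD4 (0.78) and GUA1 (0.61) were also called higher in raffinose and ADE12 (-0.49) lower (limma, adjusted p = 7.95e-05, 0.000268 and 0.0101). In order of mean, IMD4 and GUA1 ran raffinose, galactose, glucose from the highest to the lowest ratio, and ADE12 ran the other way. With replicates 1 and 2 averaged, and 3 and 4 averaged, limma called none of these 7 differences, and none of those called just with the block. The shift between the pairs counts as spread there. Against 0, that averaging also ended the calls of IMD3 and ADE12 in raffinose, of GUA1, ADE1 and ADE2 in galactose and of IMD3, IMD4, ADE4 and ADE17 in glucose. The calls of IMD2, ADE12 and ADE17 in galactose and of IMD2, GUA1 and ADE12 in glucose held.

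Turning raffinose replicates 3 and 4 also changed the differences that involve raffinose. If the deposited signs are right, a turned raffinose mean carries just the difference between the pairs of arrays. Setting it against the strain ratio of another sugar then cannot decide whether a difference between sugars holds. The calls of ADE17 against glucose (-0.22), IMD3 against galactose (0.28) and ADE2 against galactose (-0.06) were lost (limma, adjusted p = 0.284, 0.669 and 0.854). The calls of IMD4 (1.21) and GUA1 (1.38) against glucose and of ADE17 against galactose (-0.58) were still made (limma, adjusted p = 0.00736, 0.00092 and 0.0153). For the same reason this is no sign that they hold. The turned raffinose mean of GUA1 was 0.33 and its glucose mean -1.06, so its difference mostly restates the glucose ratio. Calls were gained for ADE4 (1.10) and ADE12 (-1.21) against glucose (limma, adjusted p = 0.00785 and 0.0407). Against galactose they were gained for GUA1 (1.09), ADE1 (0.81) and ADE4 (0.80, limma, adjusted p = 0.0039, 0.0105 and 0.035).

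**Figure D3:**
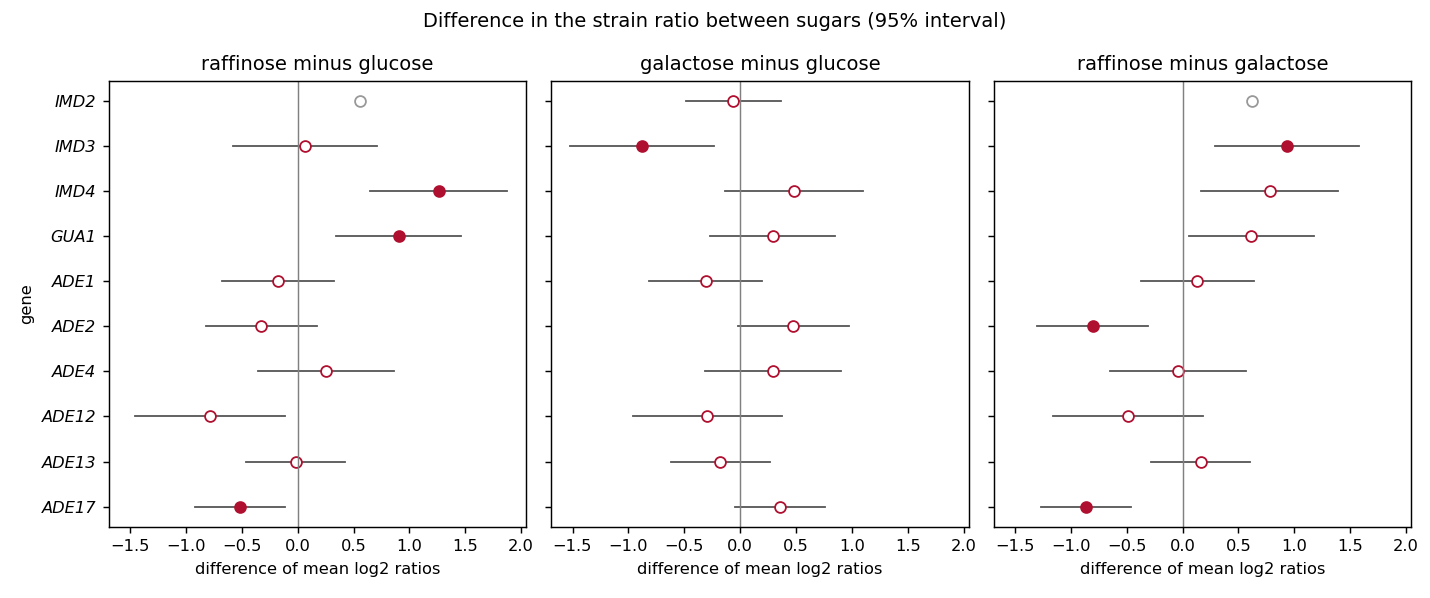
Difference between mean log2 ratios of 2 sugars (horizontal axis) for each gene (vertical axis), with 95% intervals, for raffinose minus glucose, galactose minus glucose and raffinose minus galactose; filled points passed the test over all genes, and the grey points of IMD2 carry no interval because raffinose chose it. IMD4 (1.26) and GUA1 (0.91) were higher in raffinose than in glucose, and ADE17 (-0.87) and ADE2 (-0.80) lower in raffinose than in galactose.

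Other genes of the pathway were read from lists. In salvage and interconversion of purines, 7 of 14 genes fell and 1 rose in raffinose, 9 fell and 0 rose in galactose and 7 fell and 2 rose in glucose. Over all genes, 14.3% were called lower in raffinose, 25.2% in galactose and 31.8% in glucose, and 22.4%, 34.8% and 26.8% higher. Limma at an unadjusted p under 0.05 gave 1 higher in galactose. The list's medians were -0.39, -0.77 and -0.36. AAH1, the adenine deaminase gene, averaged -0.66 ± 0.36 in raffinose, -1.95 ± 0.32 in galactose and -2.22 ± 0.21 in glucose (limma, adjusted p = 0.00425, 4.29e-07 and 9.31e-08). APT1, an adenine phosphoribosyltransferase gene, was at -0.92 ± 0.52, -1.79 ± 0.41 and -1.99 ± 0.26 in the same order (limma, adjusted p = 0.00251, 6.05e-06 and 2.22e-06). AAH1 and APT1 fell less in raffinose than in glucose, by 1.56 ± 0.21 and 1.07 ± 0.27 (SE, limma, adjusted p = 0.000157 and 0.00831). APT2, a relative of APT1, fell to -1.28 ± 0.31 in galactose (limma, adjusted p = 6.22e-06). YNK1, the nucleoside diphosphate kinase gene, rose in raffinose (0.93 ± 0.53, limma, adjusted p = 0.00215) and in glucose (1.47 ± 0.23, limma, adjusted p = 2.43e-05), and averaged -0.25 ± 0.39 in galactose (limma, adjusted p = 0.276).

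Of the other genes of de novo synthesis, 4 of 5 were measured. ADE8, which encodes a transformylase of the early pathway, fell in all 3 sugars (-0.58 ± 0.45, -1.09 ± 0.25 and -0.87 ± 0.14 in raffinose, galactose and glucose, limma, adjusted p = 0.00997, 5.12e-05 and 0.000309). ADE3, which supplies folate-bound one-carbon units, rose in galactose (1.06 ± 0.42) and in glucose (0.86 ± 0.29, limma, adjusted p = 0.000389 and 0.00193). ADE6 and ADE16 were called in no comparison. Among the 5 genes for synthases of PRPP, the activated ribose that starts the pathway, limma called 0 in raffinose, with 1 lower at an unadjusted p under 0.05. Over all genes, 22.4% were called higher and 14.3% lower there. PRS4 fell in galactose (-0.78 ± 0.39, limma, adjusted p = 0.00398), and PRS5 (-0.95 ± 0.37) and PRS1 (-0.74 ± 0.40) fell in glucose (limma, adjusted p = 0.00297 and 0.0182). These counts of 1 and 2 of 5 lie near the 25.2% and 31.8% of all genes called lower in those sugars.

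Bas1 and Pho2 together activate ADE genes in yeast, and Gcn4 activates many amino acid and some purine genes. BAS1 averaged 0.11 ± 0.13 in raffinose (limma, adjusted p = 0.52), -0.39 ± 0.13 in galactose (limma, adjusted p = 0.0139) and -1.11 ± 0.33 in glucose (limma, adjusted p = 6.59e-06). Its 4 arrays did not overlap between any 2 sugars, and BAS1 was called in all 3 differences between sugars (limma, adjusted p = 0.000198, 0.00395 and 0.0434). PHO2 rose in galactose (0.97 ± 0.21, limma, adjusted p = 0.000211), with 0.43 ± 0.10 in raffinose and 0.28 ± 0.53 in glucose. GCN4 rose in glucose (0.88 ± 0.40, limma, adjusted p = 0.00434), with 0.51 ± 0.59 in raffinose and 0.09 ± 0.46 in galactose. Of 9 one-carbon and histidine genes, 7 fell and 1 rose in raffinose, 3 fell and 1 rose in galactose and 5 fell and 1 rose in glucose. The shares of all genes called lower were 14.3%, 25.2% and 31.8%, so the galactose count lies near that share. HIS1, for the first step of histidine synthesis, fell to -1.32 ± 0.50, -1.14 ± 0.43 and -1.85 ± 0.43 in the 3 sugars (limma, adjusted p = 0.000403, 0.000422 and 8.8e-06). The glycine cleavage genes GCV1, GCV2 and GCV3 fell in raffinose (-0.85 ± 0.21, -0.94 ± 0.38 and -1.24 ± 0.55, limma, adjusted p = 9.41e-05, 0.000394 and 0.000442), while GCV1 rose in glucose (0.53 ± 0.08, limma, adjusted p = 0.00103). GCV2 and GCV3 also fell in glucose (-0.56 ± 0.32 and -0.55 ± 0.34, limma, adjusted p = 0.00555 and 0.0307). In galactose GCV3 fell as well (-0.92 ± 0.36, limma, adjusted p = 0.00142).

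URA2 and URA8, pyrimidine genes whose start sites, like those of IMD2 and ADE12, are known in yeast to shift with nucleotide supply, rose in every sugar. URA2 averaged 1.51 ± 0.52 in raffinose, 1.87 ± 0.50 in galactose and 1.55 ± 0.49 in glucose (limma, adjusted p = 0.000296, 1.7e-05 and 8.11e-05). URA8 averaged 1.49 ± 0.57, 1.70 ± 0.45 and 1.55 ± 0.19 in the same order (limma, adjusted p = 0.00013, 1.35e-05 and 2.79e-05). Both were above 0 on all 12 arrays, as were IMD2 and ADE12, without the share of all genes to set this against. This list of 2 was written with the IMD2 ratio known, and it is not independent support for that ratio.

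**Figure D4:**
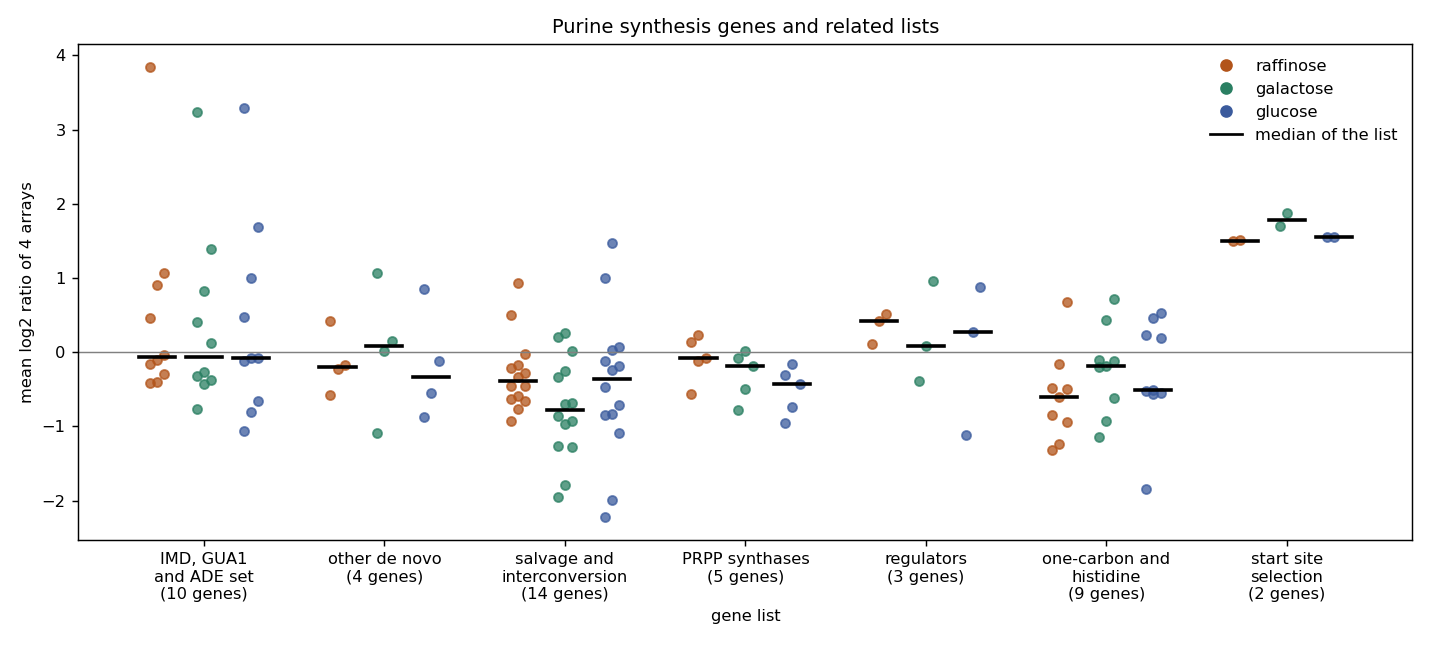
Mean log2 ratio of 4 arrays (vertical axis) for each gene of 7 gene lists (horizontal axis), coloured by sugar, with a bar at the list's median. The salvage list has medians of -0.39, -0.77 and -0.36 in raffinose, galactose and glucose, and both start site genes lie at 1.49 or above in each.

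The genes whose ratios followed IMD2 most closely over the 12 arrays were YDR444W, RPA14, VAC17, FUI1 and RNH201, with Pearson r from 0.94 to 0.96 among 4803 genes with a range of at least 1. RPA14 encodes a subunit of RNA polymerase I and FUI1 a uridine permease. These r are descriptions over arrays of which some share a culture. They use the raffinose values that chose IMD2. They also take in the shift between the pairs of arrays, with a median over all genes of 0.53, 0.48 and 0.15 in raffinose, galactose and glucose. Their levels were unlike that of IMD2: RPA14 averaged -0.69, -1.57 and -1.33 and FUI1 -0.15, -0.85 and -0.76 in raffinose, galactose and glucose. Within the set, GUA1 (r = 0.86) and IMD4 (r = 0.85) followed IMD2 most closely, and ADE12 (r = 0.05), ADE2 (r = -0.12) and ADE17 (r = -0.38) followed it least.

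IMD2 stands near a chromosome end, with PHO12, an acid phosphatase gene, on its inner side. PHO12 averaged 0.24 ± 0.41 in raffinose, 0.55 ± 0.37 in galactose and -0.49 ± 0.26 in glucose, and its highest array read 0.87. On the outer side, YHR218W averaged 0.38 ± 0.34, 1.50 ± 0.25 and 1.62 ± 1.005 and YHR219W 0.51 ± 0.75, 1.45 ± 0.68 and 0.79 ± 0.14 in raffinose, galactose and glucose. No array of these neighbours reached 2.89, the lowest IMD2 ratio. ADE2 is also a common auxotrophic marker of laboratory strains. Among such markers URA3 rose in every sugar, to 2.64 ± 0.11 in raffinose, 2.71 ± 0.04 in galactose and 1.88 ± 0.08 in glucose (limma, adjusted p = 1.17e-09, 5.55e-10 and 4.35e-09). LYS2 fell in raffinose (-0.66 ± 0.50) and in glucose (-1.78 ± 0.30, limma, adjusted p = 0.0241 and 1.01e-05). LEU2 rose in raffinose (1.14 ± 0.73) and in glucose (0.89 ± 0.55, limma, adjusted p = 0.00494 and 0.0115). TRP1 fell in galactose (-1.60 ± 0.72, limma, adjusted p = 0.00421). Whether marker differences between the strains bear on the purine genes was not tested.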

How the data were processed

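In the deposited table each probe has a log2 ratio on each array, of total RNA in Cy5 and Cy3, labelled with an Agilent low-input amplification kit per the labels. How the authors normalized the ratios, which log base they took and whether they turned dye swaps is not given in the sources used here. Log2 was inferred from the size of the values, so every fold rests on it. Probes were named through the platform annotation (9271 named, 1536 unnamed; all 9271 matched assembly R64, used for names and gene order only) and averaged per gene. Of the 10 genes, 7 had 2 probes, whose sugar means differed by at most 0.17.

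Genes needed a value on 3 of 4 arrays per sugar. Limma 3.58.1 in R 4.3.3 (lmFit, eBayes) fitted 1 mean per sugar on all 12 arrays, with calls where the Benjamini-Hochberg adjusted p, over 5636 genes, was under 0.05. Array medians ran from -0.19 to 0.30, with no further centring. Background correction, dim-spot filters and slide could not be varied from this table.

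The 10 genes, gene lists and tests were chosen with earlier results of these data known. Named genes are the 10, the called genes of each list (up to 4 by size), all regulators, the neighbours of IMD2 and the 5 genes most like it. ADE5,7 and IMD1 have no named probe here. Same-numbered arrays deviated together across sugars (r = 0.52 to 0.89), but these r also take in the shift between the pairs of arrays. Just 3 of the 12 correlated best with a same-numbered array, and the labels do not say what a number shares. The numbers are therefore not shown to pair the arrays. Fits with the replicate number as a block take such a pairing as given, and their p-values rest on it.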

Additional observations from a re-analysis of the deposited data

Results flagged for a closer look

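For 7 differences between sugars the strain ratio itself differed by limma's contrast. IMD3 was lower in galactose than in glucose (-0.88, adjusted p = 0.0279) and higher in raffinose than in galactose (0.94, adjusted p = 0.0307). IMD4 (1.26, adjusted p = 0.004) and GUA1 (0.91, adjusted p = 0.0153) were higher in raffinose than in glucose. ADE2 was lower in raffinose than in galactose (-0.80, adjusted p = 0.0188). ADE17 was lower in raffinose than in glucose (-0.51, adjusted p = 0.0458) and than in galactose (-0.87, adjusted p = 0.00409). With raffinose replicates 3 and 4 turned, the calls of IMD3 (0.28, limma, adjusted p = 0.669) and ADE2 (-0.06, limma, adjusted p = 0.854) against galactose and of ADE17 against glucose (-0.22, limma, adjusted p = 0.284) were lost. These losses cannot decide those calls, because a turned mean carries just the difference between the pairs if the deposited signs are right. No array of the 10 genes stood apart from the other 3 of its sugar by Dixon's test. With so few values, which often fell in pairs, that test could hardly single out an array, so nothing is concluded from it.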

How the results depend on the processing

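Requiring all 12 values, or using the first probe of each gene, changed none of 54 results of the 10 genes. Counts of called genes are given for the purine genes and then over all genes. As reported they were 2 and 2071 in raffinose, 6 and 3383 in galactose, 7 and 3302 in glucose, 3 and 2117 for raffinose minus glucose, 1 and 2656 for galactose minus glucose and 3 and 1718 for raffinose minus galactose. With arrays centred on their median, 6 purine genes were called in raffinose, 5 for raffinose minus glucose, 4 for galactose minus glucose and 5, with 2820 of all genes, for raffinose minus galactose. Centring moved the split over all genes from 1272 higher and 845 lower to 1396 and 1418 for raffinose minus glucose, and from 1568 and 1088 to 1586 and 1760 for galactose minus glucose. With the replicate block, 6 and 3406 were called in raffinose, 3492 of all genes for raffinose minus glucose, 5 purine genes for galactose minus glucose and 6 and 3358 for raffinose minus galactose. The block left 39 of the 54 results on their side of the threshold and brought 15 past it.

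With replicates 1 and 2, and 3 and 4, averaged, 0 and 184 were called in raffinose, 3 and 1688 in galactose, 3 and 1564 in glucose, and 0 purine genes for every difference, with 132, 796 and 84 of all genes. Averaging leaves 2 values per sugar, and the shift between the pairs then counts as spread. Which arrays repeat a culture is not known, so the averaging may not join such repeats. Fitting raffinose alone called 1233 of all genes. Among raffinose calls, turning replicates 3 and 4 left 0 purine genes and 0 of all genes, and reversed IMD2 against glucose (-3.08) and galactose (-3.02) and ADE4 against galactose (0.80). It also ended 3 calls of differences, of ADE17 against glucose (-0.22) and of IMD3 (0.28) and ADE2 (-0.06) against galactose. If the deposited signs are right, these changes set the difference between the pairs against a strain ratio, and they cannot decide the calls.

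After seeing the data, replicates 1 and 2 alone and 3 and 4 alone were added, each with 2 arrays per sugar that may share a culture. Replicates 1 and 2 called 4 and 4030 in raffinose, 5 and 3765 for raffinose minus glucose, 6 purine genes for galactose minus glucose and 6 and 3361 for raffinose minus galactose, and reversed ADE17 in raffinose (0.21). Replicates 3 and 4 called 8 and 3869, 6 and 3342, 5 purine genes and 6 and 3095 in the same order, and reversed IMD3 in galactose (-0.27). Leaving out 1 array gave 2 to 3 purine genes and 1575 to 1884 of all genes in raffinose, 4 to 6 and 2971 to 3131 in galactose, 6 to 7 and 2833 to 3010 in glucose, 1 to 3 and 1704 to 2194 for raffinose minus glucose, 0 to 1 and 2319 to 2586 for galactose minus glucose and 2 to 5 and 1294 to 1813 for raffinose minus galactose. The causes of these changes were not tested.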

Other observations

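The marker gene HIS3 changed sign between the pairs of arrays in all 3 sugars, and TRP1 in raffinose and glucose. HIS3 read -1.99, -1.42, 1.48 and 0.55 in raffinose, -2.20, -2.06, 0.39 and 1.29 in galactose and -0.60, -1.001, 0.60 and 0.79 in glucose on replicates 1 to 4. TRP1 read -1.48, -1.74, 0.69 and 0.57 in raffinose, -2.21, -2.24, -1.09 and -0.87 in galactose and -0.53, -0.55, 0.54 and 0.61 in glucose. None of the 10 purine genes differed between the pairs by more than 0.96. MET17 averaged -0.61 ± 0.55 in raffinose and 0.40 ± 0.52 in glucose, which did not pass the test, and fell in galactose (-0.77 ± 0.49, limma, adjusted p = 0.0125).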
